A study of Mus musculus with 9 samples.

Results

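Tafa1, Trp73os, Trp63, Lonrf2, Skint7, C1ql4, Traf3ip3 and Hes7 are 8 of the 43644 genes measured here in the coronal suture, where fibrous tissue joins the frontal to the parietal bones of the skull. They were picked by their values: among named genes they had the largest log2 rises in unoperated Twist1+/- suture over wild type, or the largest falls in operated Twist1+/- suture from unoperated. Their levels in those comparisons are therefore a description, with no test. All 8 passed the filter on low values that left 29107 genes. By what is known of them, 7 of the 8 belong to tissues other than bone and suture, and for Trp73os no tissue is given here.

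The samples came from C57BL/6 mice at 7 months of age, with 3 libraries in each of 3 groups. WT was the wild-type suture without surgery, MUT the Twist1+/- suture without surgery, and REG the Twist1+/- suture of mice given suture regeneration surgery at 1 month of age. MUT and REG thus share the loss of 1 copy of Twist1, the gene of a transcription factor of skull mesenchyme, in which heterozygous loss is known to fuse the coronal suture early, and WT and MUT share the absence of surgery. The labels do not describe the Twist1 allele or the surgery further, nor do they state if the libraries came from separate mice, so spreads and p-values are those between these libraries.

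The first 4 to describe are known from epithelium or the nervous system. Tafa1 encodes a small secreted chemokine-like protein of brain neurons. Trp63 encodes p63, the p53-family transcription factor that maintains basal keratinocytes of the skin and other stratified epithelia. Skint7 belongs to a cluster of immunoglobulin-like membrane proteins made in skin and thymic epithelium. Lonrf2 encodes a RING-finger ubiquitin ligase known from neurons. The others are scattered over further tissues. C1ql4 encodes a secreted C1q-like protein known from testis and fat, of a family whose members bind the receptor Adgrb3. Traf3ip3 encodes a membrane adaptor of B and T lymphocytes that binds TRAF3. Hes7 encodes the basic helix-loop-helix repressor that oscillates in the presomitic mesoderm of the embryo and times the formation of somites. Trp73os is a noncoding RNA transcribed opposite to Trp73, the gene of the p53 relative p73, and is not placed in a tissue here.

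The genes lie on 6 chromosomes (GRCm38, GENCODE M21). Tafa1 spans 544 kb of chromosome 6 (96113154 to 96657198), with 4.21 kb of exon. Trp63 spans 208 kb of chromosome 16 (25683763 to 25892102), with 8.39 kb of exon. Lonrf2 spans 43.1 kb of chromosome 1 (38793645 to 38836711) and Traf3ip3 26.3 kb of the same chromosome (193175453 to 193201703). Skint7 spans 15.3 kb of chromosome 4 (111972923 to 111988223), which also holds Trp73os (154093479 to 154098353). C1ql4 lies on chromosome 15 (99084086 to 99087817) and Hes7 on chromosome 11 (69120404 to 69124055). The spans therefore ran from 3.65 kb for Hes7 to 544 kb for Tafa1, and 7 of the genes code for protein.

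One sequence feature was found in all 8. Each has, in at least 1 annotated transcript, a tandem repeat of at least 6 copies and 20 bases, with a unit of 2 to 6 bases. The 4 repeats outside untranslated regions are printed with 10 bases on either side, 5′ to 3′ on the transcript strand, with the repeat in capitals. They are shown because each of these otherwise unlike genes has one. Such repeats are not particular to them: 27.4% of the other named protein-coding genes tested have one, and 75% of the 100 with the largest rises in MUT vs WT. Sequences were read from GENCODE M21 transcripts. Those of Trp73os (chr4:154097990-154098053, plus strand), Trp63 (chr16:25871082-25871122, plus strand), Skint7 (chr4:111986200-111986273, plus strand) and Traf3ip3 (chr1:193195130-193195197, minus strand) read as follows.
Trp73os: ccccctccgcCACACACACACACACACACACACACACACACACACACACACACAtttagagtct
Trp63: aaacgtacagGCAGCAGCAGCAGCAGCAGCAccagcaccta
Skint7: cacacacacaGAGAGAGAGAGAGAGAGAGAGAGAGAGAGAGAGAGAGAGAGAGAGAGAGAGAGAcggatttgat
Traf3ip3: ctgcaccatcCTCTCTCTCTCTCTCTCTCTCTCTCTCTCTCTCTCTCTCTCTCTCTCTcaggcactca

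The Trp73os repeat, 22 copies of CA, lies in an exon of the noncoding RNA. The Trp63 repeat, 7 copies of GCA, lies in the coding sequence. Those of Skint7 (27 copies of GA) and Traf3ip3 (24 copies of CT) lie in transcripts annotated as retaining an intron. The other 4 lie in 3′ untranslated regions and are not printed: CA in Tafa1 (36 bases), TC in Lonrf2 (76 bases), AG in Hes7 (46 bases) and AG in C1ql4 (20 bases). Read on either strand, GA and CT are the same repeat, and so are AG and TC up to the starting base. By their longest repeat, 5 of the 8 genes are thus of the GA/CT type and 2 of the CA/GT type.

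The deposited values are gene signals scaled so that the upper quartile is equal in every library. In MUT all 8 genes had values of 28.0 or more in every library. The highest value in WT was 12.4 and the highest in REG 39.6. All 3 MUT libraries lay above all 6 others for 8 of the 8 genes, as they did for 23.2% of all genes tested. The genes were chosen on these very libraries, so the count carries no information beyond the choice. In these bulk samples more cells of a type and more RNA per cell cannot be told apart.

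Tafa1 had values of 320, 1394 and 324 in MUT replicates 1 to 3, against 11.1, 1.11 and 1.37 in WT and 36.9, 39.6 and 0.244 in REG. MUT replicates 1 and 3 were alike and replicate 2 was the highest of the 9. REG was split, with replicates 1 and 2 above all WT libraries and replicate 3 below them. The log2 change was 7.41 ± 1.49 (± SE of the limma fit) from WT to MUT and −5.76 ± 1.49 from MUT to REG.

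Trp73os had values of 98.7, 491 and 109 in MUT replicates 1 to 3, against 4.57, 1.45 and 2.05 in WT and 22.3, 19.1 and 0.146 in REG. It followed the order of Tafa1: MUT replicate 2 highest, MUT replicates 1 and 3 close together, REG replicates 1 and 2 between MUT and WT, and REG replicate 3 lowest of all. Its log2 change was 5.97 ± 1.28 from WT to MUT and −4.84 ± 1.28 from MUT to REG.

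Trp63, the epithelial regulator, had values of 39.6, 243 and 104 in MUT replicates 1 to 3, against 2.32, 0.883 and 1.28 in WT and 1.19, 1.27 and 0.492 in REG. Here MUT replicate 3 lay well above replicate 1, and REG overlapped WT from below. The log2 change was 5.83 ± 0.62 from WT to MUT and −6.27 ± 0.62 from MUT to REG, the largest fall of the 8 genes.

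Lonrf2, the ubiquitin ligase, had values of 172, 696 and 500 in MUT replicates 1 to 3, against 12.4, 4.05 and 7.52 in WT and 7.32, 9.12 and 2.29 in REG. MUT replicates 2 and 3 were closer to each other than to replicate 1, and WT and REG overlapped. Its log2 change was 5.68 ± 0.66 from WT to MUT and −6.08 ± 0.66 from MUT to REG.

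Skint7, of skin and thymic epithelium, had values of 36.7, 195 and 90.2 in MUT replicates 1 to 3, against 2.87, 0.393 and 1.16 in WT and 4.38, 6.11 and 0.146 in REG. As with Tafa1 and Trp73os, REG replicates 1 and 2 lay above every WT library and REG replicate 3 below. Its log2 change was 5.81 ± 0.97 from WT to MUT and −5.11 ± 0.97 from MUT to REG.

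C1ql4, the secreted C1q-like protein, had values of 28.0, 146 and 72.2 in MUT replicates 1 to 3, against 2.78, 1.60 and 1.41 in WT and 0.910, 0.497 and 0.643 in REG. It was the only one of the 8 genes with all 3 REG libraries below all 3 WT libraries, as 12.1% of all genes tested had. Its log2 change was 4.91 ± 0.55 from WT to MUT, the smallest of the 8, and −6.02 ± 0.55 from MUT to REG.

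Traf3ip3, the lymphocyte adaptor, had values of 96.2, 511 and 260 in MUT replicates 1 to 3, against 7.73, 3.11 and 3.20 in WT and 3.70, 5.08 and 5.38 in REG. Its REG libraries were close together and within the WT range, REG replicate 3 included. Its log2 change was 5.66 ± 0.59 from WT to MUT and −5.54 ± 0.59 from MUT to REG.

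Hes7, the segmentation repressor, had values of 31.9, 198 and 70.9 in MUT replicates 1 to 3, against 2.85, 1.04 and 2.06 in WT and 3.05, 2.23 and 0.257 in REG. REG replicate 3 was again the lowest library, while the other REG values lay near WT. Its log2 change was 5.11 ± 0.77 from WT to MUT and −5.44 ± 0.77 from MUT to REG.

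**Figure D1:**
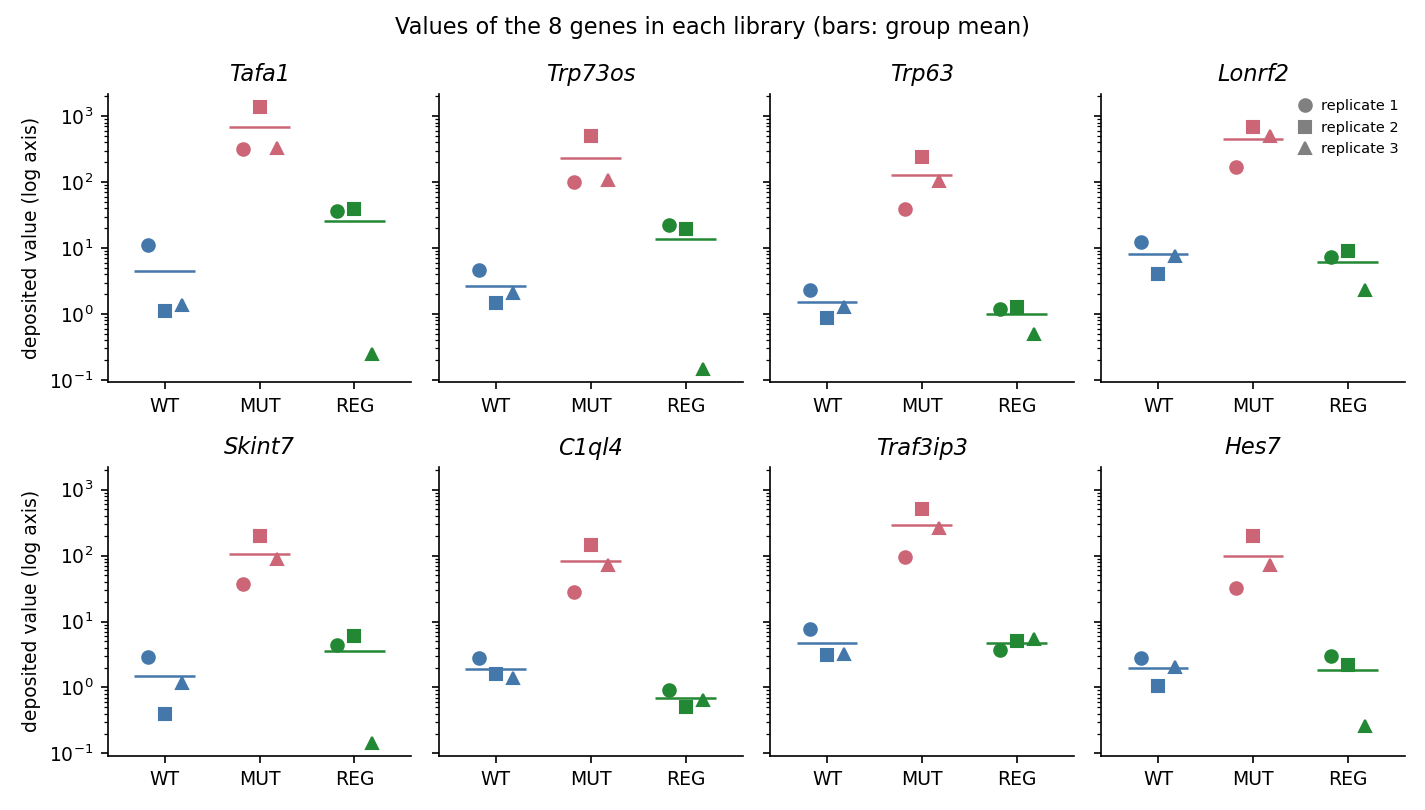
Deposited value (upper-quartile scaled signal, log axis) of each of the 8 genes in the 3 WT, 3 MUT and 3 REG libraries; points are libraries, shaped by replicate number, and bars are group means. All MUT libraries lie above all others, MUT replicate 2 is the highest in each panel, and REG replicate 3 lies far below REG replicates 1 and 2 for Tafa1, Trp73os and Skint7.

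The selection had an edge. In MUT vs WT the seventh place was held by Lonrf2 (log2 change 5.68) and the eighth by Traf3ip3 (5.66), which entered through REG vs MUT. The next named gene was AC149054.1 (5.41). In REG vs MUT the seventh place was held by Hes7 (−5.44), and Onecut3 followed it at the same rounded value (−5.44). Pax5 (5.89 in MUT vs WT) and Six3 (5.84) ranked among the members and are not counted with them here.

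The libraries themselves differed along with the groups. Estimated reads on genes were 10894209, 2945636 and 7860273 in MUT replicates 1 to 3, from 16356391 to 20019712 in WT and from 18276494 to 39377876 in REG. Read density over 1408 olfactory, vomeronasal and trace amine receptor genes, known from sensory neurons of the nose and used here as a measure of background, corresponded to 23.7%, 8.42% and 22.0% of the reads in MUT and to between 0.536% and 0.987% in WT and REG. The share of mitochondrially encoded genes was 2.01% to 4.78% of the reads in MUT and 9.70% to 15.5% elsewhere. The repeat-like predicted gene Gm10800 had 101039, 23738 and 65299 RPM in MUT and 4.24 to 35.4 RPM elsewhere. Of 16 osteoblast and suture mesenchyme markers, 12 fell and 0 rose in MUT vs WT (limma, adjusted p under 0.05), and their summed level was 15478, 51031 and 8654 reads per 1e+06 (RPM) in MUT against 56109 to 88538 in WT and 40847 to 78805 in REG. Twist1 had values of 0.987, 8.08 and 0.548 in MUT, 16.2, 23.3 and 23.1 in WT, and 3.76, 9.19 and 12.2 in REG. The part of these differences in the levels of the 8 genes was not tested.

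The 3 MUT libraries did not carry the genes equally. MUT replicate 2 was the highest of the 9 libraries for all 8 genes (17.1% of all genes tested had it highest), and MUT replicate 1 was the lowest MUT library for all 8. The choice used these MUT values and favours genes highest in a MUT library, so the share over all genes is no measure for the 8. MUT replicate 2 exceeded MUT replicate 1 by 4.05-fold for Lonrf2 to 6.20-fold for Hes7. MUT replicate 3 exceeded MUT replicate 1 by 1.01-fold for Tafa1 and 1.11-fold for Trp73os, and by 2.22-fold to 2.91-fold for the other 6 genes. The library of MUT replicate 2 is also named in another form than the other 2 in the deposited table, and what the form means is not stated.

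In MUT the summed level of the 8 genes was 4630, 13175 and 9279 RPM in replicates 1 to 3, or 0.463%, 1.32% and 0.928% of the reads. In WT it was 101, 25.4 and 41.5 RPM, and in REG 217, 245 and 21.1 RPM. The scaling mattered for the order within MUT: per 1e+06 reads, MUT replicate 2 stayed highest for 7 genes, and MUT replicate 3 was highest for Lonrf2 (3032 against 2367 RPM). Per kb of exon, Tafa1 was the most abundant of the 8 in each MUT library, at 428, 1125 and 467 RPM per kb, and Trp63 the least, at 26.5, 98.4 and 74.9 RPM per kb. In WT replicates 2 and 3 the order was another one, with C1ql4 (2.02 RPM per kb) highest in replicate 2 and Hes7 (2.35 RPM per kb) highest in replicate 3.

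The signal on these genes was above that on receptor genes in every library. In MUT replicate 1 the reads per kb of exon were 14.02-fold to 226-fold the receptor median of the same library (median of the 8 genes 54.4-fold). In MUT replicate 2 they were 147-fold to 1677-fold (median 486-fold), and in MUT replicate 3 from 42.7-fold to 266-fold (median 163-fold). Set against their own background in this way, WT replicate 1 (median 44.3-fold), REG replicate 1 (41.4-fold) and REG replicate 2 (45.7-fold) lay close to MUT replicate 1. The median was 20.2-fold in WT replicate 2, 20.4-fold in WT replicate 3 and 4.85-fold in REG replicate 3. Background per kb was itself 20.6, 1.98 and 13.8 reads in MUT replicates 1 to 3, from 1.01 to 1.51 in WT and from 0.781 to 2.68 in REG.

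**Figure D2:**
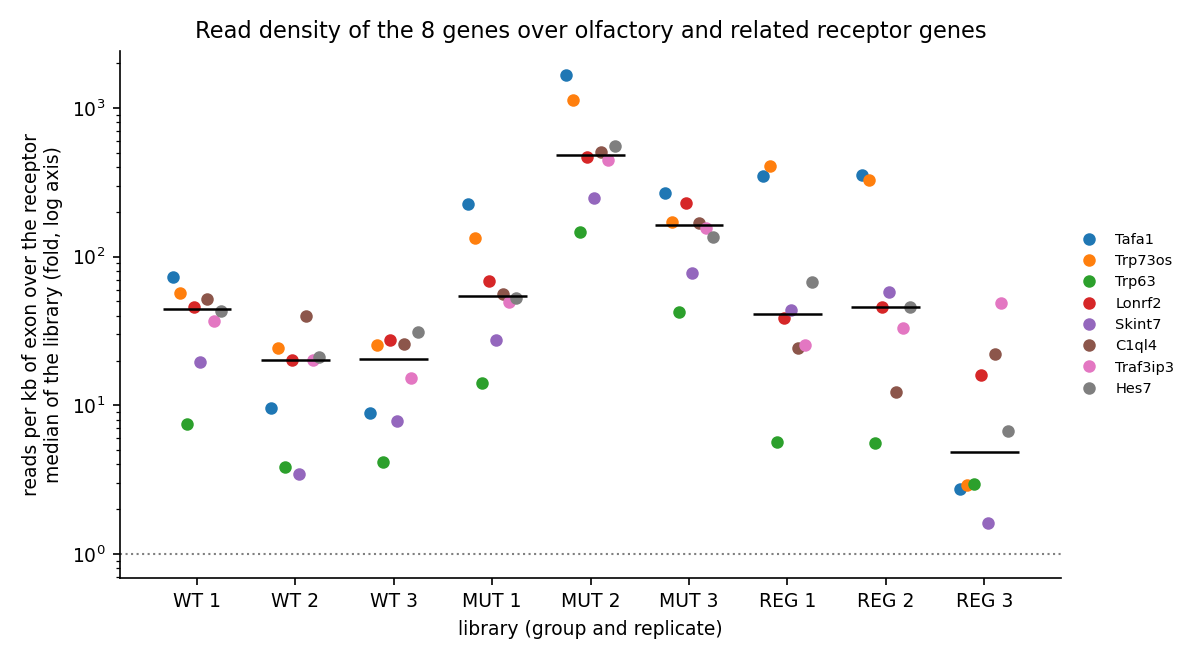
Reads per kb of exon of each of the 8 genes, divided by the median over 1408 receptor genes in the same library (fold, log axis), for the 9 libraries; points are genes, bars the median of the 8, and the dotted line marks equality. MUT replicate 2 stands highest with a median of 486, MUT replicate 1 (54.4) is near WT replicate 1 (44.3), and REG replicate 3 is lowest (4.85).

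Within WT the genes also shared an order. WT replicate 1 was the highest WT library for all 8 genes, against 34.9% of all genes tested, and WT replicate 2 the lowest for 7. For the count of 7 no share over all genes is given. The ratio of WT replicate 1 to WT replicate 2 ran from 1.74 for C1ql4 to 10.01 for Tafa1. The rule rests on the WT level as a group, and the order among WT libraries was not part of it.

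Within REG the genes fell into 2 patterns. For Tafa1, Trp73os and Skint7, REG replicates 1 and 2 were both over 10 times REG replicate 3, which held for 2.37% of all genes tested. REG replicate 1 was 151-fold REG replicate 3 for Tafa1, 152-fold for Trp73os and 29.98-fold for Skint7. In REG replicate 3 these genes had only 9, 5 and 5 estimated reads, so the ratios are imprecise. For the other 5 genes REG replicate 1 was from 0.687-fold (Traf3ip3) to 11.9-fold (Hes7) REG replicate 3. REG replicate 3 was the lowest of the 9 libraries for 6 genes, all but C1ql4 and Traf3ip3. No share over all genes is given for this count. The choice used REG values and favours genes low in REG, so shares over all genes are no measure for the 8. The names of REG replicates 1 and 2 in the deposited table share a form that REG replicate 3 does not have, and whether they were made apart from it was not tested.

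REG vs WT asks whether the operated Twist1+/- suture differed from wild type, and is the one comparison the choice did not use directly. It shares its WT and REG libraries with the other 2 comparisons. In this fit its log2 change is the sum of those from WT to MUT and from MUT to REG. The choice could therefore shape its estimates, and it is not an independent test. None of the 8 genes was called (0 of 8, limma, adjusted p from 0.548 to 0.957), and 0% of all genes tested were. At an unadjusted p under 0.05 it was 0 of the 8 genes and 2755 of all 29107 (9.47%). The median log2 change of the 8 was −0.11, beside −0.18 over all genes.

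The intervals were wide. Tafa1 had a log2 change of 1.65 with a 95% confidence interval from −1.67 to 4.98 (limma, adjusted p = 0.717), and Trp73os one of 1.13 from −1.73 to 3.99 (limma, adjusted p = 0.776). C1ql4 had the lowest value, −1.10, with an interval from −2.34 to 0.13 (limma, adjusted p = 0.548). Traf3ip3 had the narrowest but one, 0.11 from −1.21 to 1.43. The intervals of 6 genes include both a 2-fold rise and a 2-fold fall, and those of Trp63 (−1.83 to 0.94) and C1ql4 include only the fall. Without REG replicate 3, 1616 genes were called in this comparison, and Trp73os was among them (log2 change 2.91, limma, adjusted p = 0.0489). With REG replicate 3 alone, the Tafa1, Trp73os and Skint7 changes took the opposite sign.

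**Figure D3:**
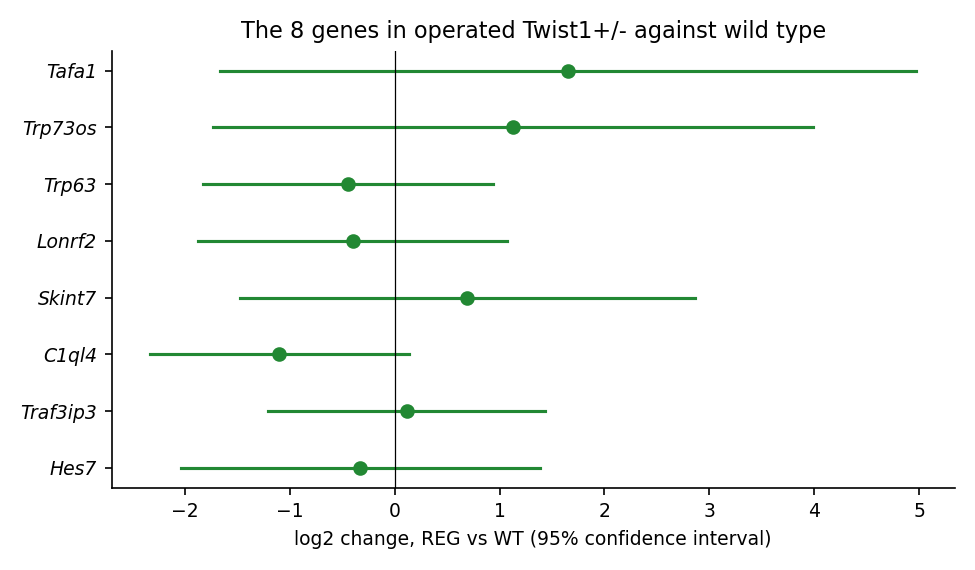
log2 change of the 8 genes in REG vs WT with its 95% confidence interval (limma, 3 libraries a group); points are estimates. All 8 intervals include 0, and those of Tafa1 and Trp73os are the widest.

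The 8 genes varied together across the libraries. Over the 28 pairs, Pearson's r of the log2 values ran from 0.82 (Tafa1 and C1ql4) to 0.994 (Trp63 and Lonrf2), with a median of 0.96. The points are 9 libraries in 3 groups that the choice set apart, so most of this is the distance between MUT and the rest. Over the 6 WT and REG libraries alone, r ran from −0.139 (Trp73os and C1ql4) to 0.976 (Tafa1 and Trp73os), with a median of 0.619. Tafa1, Trp73os and Skint7 kept an r of 0.960 or more with each other there. C1ql4 and Traf3ip3 had an r of 0.17 with each other.

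Other genes matched each pattern as closely. The named gene of highest r over the 9 libraries was AC149054.1 for Tafa1 (r = 0.993), Vmn2r99, a vomeronasal receptor gene, for Trp73os (0.995), Diras1 for Trp63 (0.998), Dach2 for Lonrf2 (0.996), Golga7b for Skint7 (0.996), Ptprt for C1ql4 (0.997), Clstn3 for Traf3ip3 (0.997) and Dnah17 for Hes7 (0.998). These are the highest of 18369 candidates for each gene, and are given as a description. Levels of different genes are not compared here, since these values are not per length. Diras1, a small GTPase gene, had values of 18.4, 64.4 and 36.1 in MUT and 1.49, 0.940 and 0.882 in WT. Vmn2r99 had values of 5.19, 8.57 and 6.16 in MUT and 1.54, 0.902 and 1.23 in WT.

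The relatives and partners of the 8 genes, which the choice did not use, are given next. Genes low in WT and REG passed the filter only where MUT was high, which favours rises in the counts. Counts are of genes passing the limma test in MUT vs WT (adjusted p under 0.05), where 20.5% of all genes tested rose and 14.6% fell, and where the median log2 change was 0.18 (all medians below are of this log2 change). Of the 4 other TAFA genes, secreted neuronal proteins, 1 rose and 0 fell, with a median of 0.67. Tafa3 rose from 1.08 ± 0.10 to 3.33 ± 1.05 (mean ± SD, n = 3, log2 change 1.32 ± 0.38), and Tafa2, Tafa4 and Tafa5 had MUT values of 0.83 to 3.75. Of the 2 other p53-family genes neither was called. Trp73, which overlaps Trp73os on the opposite strand, had values of 1.93, 1.82 and 1.64 in MUT and 1.47, 0.722 and 0.714 in WT (log2 change 0.74 ± 0.57), and Trp53, the DNA damage regulator, had a log2 change of −1.59 ± 0.72.

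Genes that work with p63 in keratinocytes were measured as a list of 27, chosen from general knowledge. Of these, 10 rose and 1 fell, with a median of 1.07. Pkp1, a desmosome plaque protein, rose most, with values of 7.47, 42.5 and 11.1 in MUT and 1.13, 2.41 and 1.96 in WT (log2 change 2.88 ± 0.72). Krt10, the keratin of upper epidermal layers, fell from 5.61 ± 1.67 to 1.24 ± 0.26 (n = 3, log2 change −1.87 ± 0.64). Of the basal keratins, Krt15 rose, with values of 1.25, 1.10 and 0.62 in MUT and 0.08, 0.19 and 0.25 in WT (log2 change 1.30 ± 0.33), and Krt5 and Krt14 were not called. Krt5 had values of 1.13, 0.49 and 1.03 in MUT and Krt14 values of 0.93, 0.10 and 1.31. Krt15 stayed below 0.367 in every WT and REG library, so it passed the filter through MUT alone. The summed level of the list was 476, 381 and 532 RPM in MUT, against 99.99 to 118 RPM in WT and 119 to 146 RPM in REG. It was lowest in MUT replicate 2, where Trp63 was highest. After subtraction of the receptor background 3 of 24 tested rose (median 0.41), where 11.2% of all genes tested did. With MUT replicate 2 as the only MUT library, assumed to vary like the other groups, 2 of 25 rose (0.46), where 3.29% of all genes tested did.

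Of the 10 other Skint genes, 7 were tested, 4 rose (Skint1, Skint4, Skint8 and Skint10) and 0 fell, with a median of 0.93. The highest was Skint8, with values of 2.66, 0.90 and 1.63 in MUT and 0.06 to 0.42 in WT (log2 change 1.84 ± 0.41). Skint3, Skint5 and Skint6 were tested and not called, and Skint2, Skint9 and Skint11 were below the filter. Skint1, Skint4 and Skint10 stayed below 0.367 in every WT and REG library, so they passed the filter through MUT alone. Skint8 is the gene that shares most sequence with Skint7: 12.7% of the 31-base words in Skint7 transcripts also occur in transcripts of other genes, mostly of Skint8, so reads could in part be exchanged between them. With quantile scaling 0 of the 7 rose (median 0.24), and with trimmed-mean scaling 2 of 6 tested. After subtraction of the receptor background only 1 of the 10 could be tested, and it was not called.

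Of 8 genes of the C1q-like and cerebellin family with the receptor Adgrb3, 2 rose and 2 fell, with a median of −0.50. Cbln3, a cerebellin of granule neurons, rose to values of 8.64, 29.6 and 14.1 in MUT from 1.01, 0.75 and 0.54 in WT (log2 change 3.82 ± 0.60), and Cbln2 also rose (1.11 ± 0.39). C1ql1, a C1q-like protein as is C1ql4, fell from 12.7 ± 1.76 to 1.74 ± 0.61 (n = 3, log2 change −2.66 ± 0.42), and Cbln4 fell as well (−2.50 ± 0.44). The receptor Adgrb3 had a log2 change of −0.52 ± 0.64. C1ql2, C1ql3 and Cbln1 were not called, with MUT values of 0.10 to 3.54.

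Of 9 other Hes and Hey repressors, the Notch effectors to which Hes7 belongs, 2 rose and 1 fell, with a median of 0.17. Hes2 rose from 0.18 ± 0.06 to 1.93 ± 0.50 (n = 3, log2 change 2.06 ± 0.31) and Hey2 from 0.57 ± 0.22 to 1.81 ± 0.73 (1.19 ± 0.38). Hes5 fell from 4.41 ± 1.16 to 0.67 ± 0.18 (−2.18 ± 0.63). Hes1, Hes3, Hes6, Hey1, Heyl and Helt were not called, with log2 changes of −0.79 to 0.76. Of 15 tested genes of the segmentation clock and its pathways, 1 rose and 2 fell, with a median of −0.18. Ripply1, a somite boundary regulator, rose to only 0.70 ± 0.29 (n = 3), and Fgf8, the growth factor of the tail bud, fell from 8.90 ± 0.61 to 1.46 ± 0.82 (n = 3). Hes2 and Ripply1 stayed below 0.367 in every WT and REG library, so they passed the filter through MUT alone.

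The relatives of Lonrf2 and Traf3ip3 did not rise. Lonrf1 and Lonrf3 had log2 changes of −0.36 ± 0.34 and −1.19 ± 0.61 and were not called. Of 8 TRAF adaptors and TRAF3 partners, 0 rose and 1 fell, with a median of −0.72. The one that fell was Traf3, the binding partner of the Traf3ip3 protein, from 14.8 ± 3.91 to 6.02 ± 0.56 (n = 3, log2 change −1.22 ± 0.33). Traf1, Traf2, Traf4, Traf5, Traf6, Traf3ip1 and Traf3ip2 had log2 changes of −0.94 to −0.27.

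Markers of the cell types in which the 8 genes are known were also measured. Of 14 B cell markers 3 rose and 0 fell (median 1.29). Among them Pax5, a B cell transcription factor, stood apart with values of 271, 1547 and 363 in MUT and 20.01, 3.74 and 8.33 in WT, while Cd79a (3.76, 7.88 and 2.62 in MUT), part of the B cell receptor complex, was not called. The summed level of the list was 2013, 6305 and 2856 RPM in MUT, 124 to 338 RPM in WT and 292 to 376 RPM in REG. Of 13 T cell markers 4 rose and 0 fell (median 0.72), led by Cd3g, part of the T cell receptor complex (log2 change 2.78 ± 0.48), and the summed level was 154 to 280 RPM in MUT, 48.4 to 80.2 RPM in WT and 59.0 to 75.2 RPM in REG.

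Of 18 neuron and astrocyte markers, 9 rose and 1 fell (median 1.69). Rbfox3, the neuronal splicing factor NeuN, rose most, with values of 19.7, 60.2 and 40.3 in MUT and 1.79, 0.54 and 0.86 in WT (log2 change 4.77 ± 0.53), and Slc17a7, a glutamate transporter, fell (−1.24 ± 0.36). Tubb3 and Map2, which neurons express broadly, were not called (−0.10 ± 0.56 and 0.41 ± 0.33). The summed level of the list was 537 to 708 RPM in MUT, 61.5 to 98.2 RPM in WT and 64.6 to 195 RPM in REG. Of 8 tested testis germ cell markers, 5 rose and 0 fell (median 1.15), led by Spo11 (1.88 ± 0.38), the recombination enzyme of meiosis, and the summed level was 17.7 to 73.0 RPM in MUT, 3.60 to 5.06 RPM in WT and 2.59 to 16.9 RPM in REG. Among those that rose, Prm2, Tnp1, Spo11 and Tex101 stayed below 0.367 in every WT and REG library. They passed the filter through MUT alone.

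Markers of tissues in which none of the 8 genes is placed here rose as well. Of 10 liver markers 4 rose and 0 fell (median 1.04, led by Ahsg, 2.27 ± 0.70), of 8 pancreas markers 3 rose and 0 fell (median 1.01, led by Pnlip, 1.74 ± 0.40), and of 11 lens and retina markers 5 rose and 1 fell (median 1.45, with Rcvrn the one that fell, −2.42 ± 0.69). Of the genes that rose, Fgg of liver and Pnlip and Amy2a5 of pancreas stayed below 0.367 in every WT and REG library. So did Crx, Crybb2 and Rpe65 of lens and retina. These genes passed the filter through MUT alone. The summed levels of these 3 lists of liver, pancreas, and lens and retina were 57.8 to 143 RPM in MUT replicates 1 and 3, 40.5 to 92.5 RPM in MUT replicate 2 and 3.24 to 25.8 RPM in WT. In REG they were 2.73 to 81.3 RPM, the highest being lens and retina in REG replicate 2. No marker of any list was without reads in all 3 MUT libraries, and the same count was not made for WT or REG. In MUT replicate 2 several markers had no reads, among them Krt14, Ttr, Gcg and Sst (0.0998, the lowest value of that library). The part of such cell types in the levels of the 8 genes was not tested.

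The counts of the lists moved with the scaling and with the treatment of the background. With quantile scaling, where 9.21% of all genes tested rose, 0 of 10 liver, 0 of 8 pancreas, 1 of 8 testis and 2 of 11 lens and retina markers rose, while 10 of 18 neuron and astrocyte, 5 of 14 B cell and 5 of 13 T cell markers did. After subtraction of the receptor background, 11.2% of all genes tested rose. Those that rose were 0 of 3 pancreas, 2 of 5 liver, 1 of 3 testis and 2 of 8 lens and retina markers tested. For B cells it was 6 of 14, for T cells 5 of 12, and for neurons and astrocytes 4 of 17. With MUT replicate 2 as the only MUT library, the median log2 change was 1.56 for pancreas (2 tested), 0.67 for liver (5) and 0.73 for testis markers (2). It was 1.23 for lens and retina (7), 1.98 for B cell (14), 0.66 for T cell (12) and 1.58 for neuron and astrocyte markers (17). The median of all genes was −0.26 there, and 1 library gives no spread within MUT. The median of the 8 genes was 6.56, 6.99 and 6.88 under these 3 settings, beside 5.74 without them. Scaling to total reads moved the median of all genes by 0.93, to 1.11. Under it the medians of the p53 (0.62), C1q-like (0.58), LONRF (0.35), TRAF (0.46) and segmentation lists (0.72) turned positive, all still below that of all genes. The median of the Hes and Hey list changed sign with quantile (−0.49) and trimmed-mean scaling (−0.10).

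**Figure D4:**
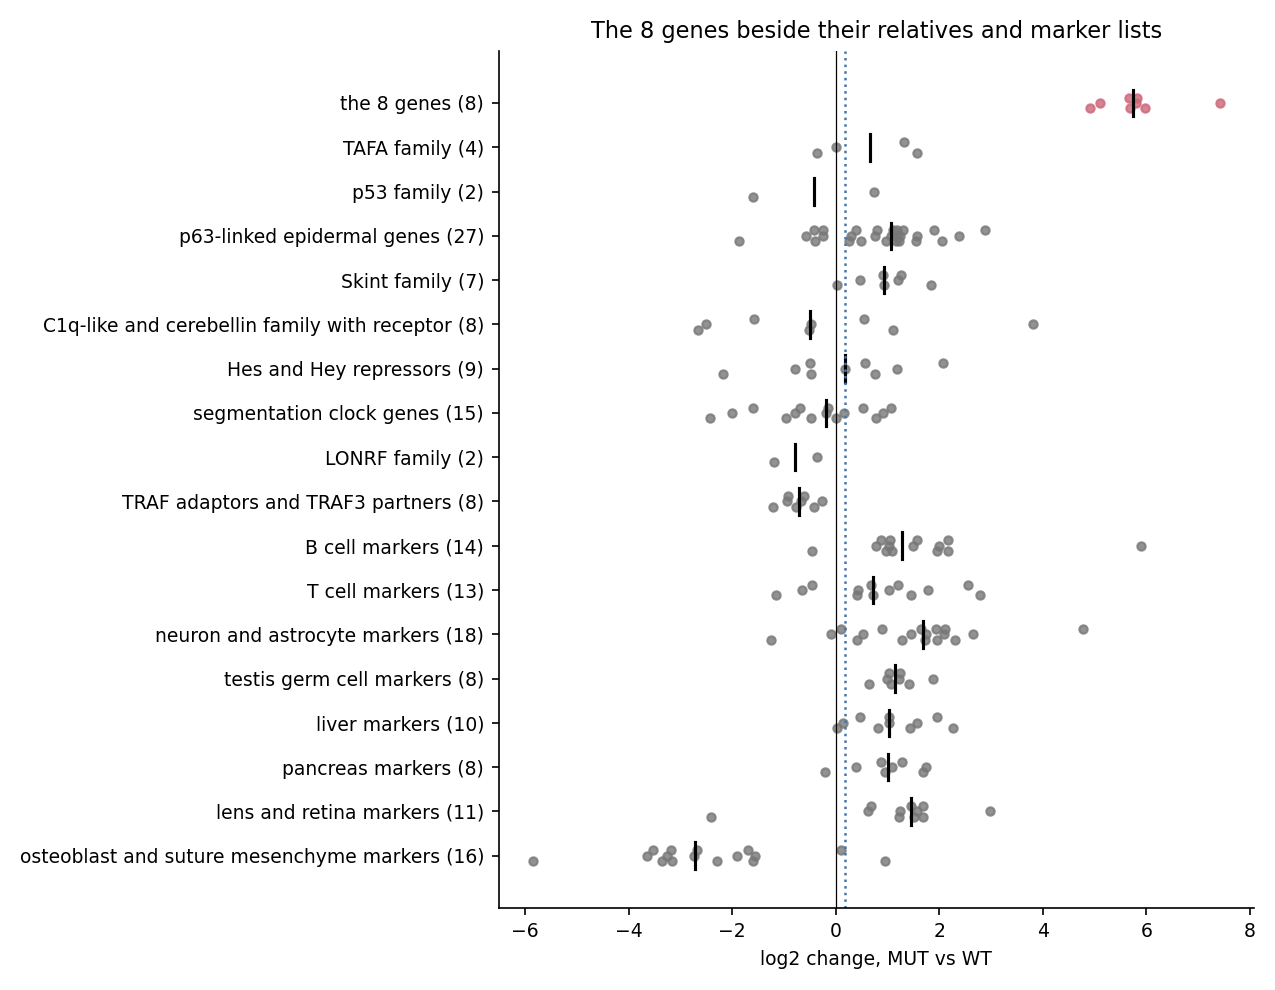
log2 change in MUT vs WT of the 8 genes and of each list of relatives and markers; points are genes, black bars list medians, the dotted line the median of all genes tested (0.18), and numbers in parentheses the genes tested. The 8 genes were chosen for this change; apart from Pax5 (5.89), Rbfox3 (4.77) and Cbln3 (3.82), the listed genes lie below 3.

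The genes around the 8 were looked up by position. Of 109 genes starting within 250 kb of a member, 87 were tested, and 17 rose and 11 fell (limma, adjusted p under 0.05), with a median log2 change of 0.27 beside 0.18 for all genes. The balance turned with the scaling: 38 rose and 3 fell with total-read scaling, and 8 rose and 17 fell with trimmed-mean scaling (median −0.03). The largest was Gm41396, a predicted gene near C1ql4, with values of 9.62, 52.6 and 10.4 in MUT and 0.48, 0.24 and 0.49 in WT (log2 change 4.55 ± 0.70). Next came 4930578M01Rik (3.33 ± 0.46). These neighbours were picked after their values were seen.

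Overlapping genes that passed the filter had MUT values under 2, and 3 others (Gm22971, Gm24928 and Gm27005) did not pass it. Beside Trp73, those that passed were 1700123L14Rik inside Tafa1 (0.77, 1.00 and 0.85 in MUT, the only one called, with a log2 change of 1.53 ± 0.30), A130010J15Rik (1.90, 1.60 and 1.53) and Gm15872 (0.42, 0.40 and 0.63) on the strand opposite to Traf3ip3, and 9130213A22Rik opposite to Hes7 (1.03, 0.32 and 1.66). 1700123L14Rik stayed below 0.367 in every WT and REG library, so it passed the filter through MUT alone. The counting is not stated to use strand, so reads of a gene and its opposite-strand partner cannot be told apart. Shared 31-base words made up 12.2% of Trp73os (mostly with Trp73), 11.9% of Hes7 (mostly with 9130213A22Rik) and 6.45% of Traf3ip3 (mostly with A130010J15Rik). Trp63 and C1ql4 shared none with any other gene, and Tafa1 and Lonrf2 under 0.5%. Base composition was not shared either, with a GC content of 35.5% in Skint7 to 61.0% in C1ql4 for the longest transcripts.

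Across other genes, tandem repeats were more frequent where the rise in MUT was larger. This comparison was chosen after the values were seen and is a description over 17865 named protein-coding genes tested, leaving out the members. Of all of these, 27.4% had such a repeat. Of the 100 with the largest rises in MUT vs WT, 75% had one, and of the next 100, 68%. The share was 61.3% in the 300 after those, 25.3% among genes not called, 25.4% among genes called lower and 14% among the 100 largest falls. Repeats of at least 30 bases were present in 63% of the 100 largest rises, 18.7% of all, 16.9% of genes not called, 15.2% of genes called lower and 9% of the 100 largest falls.

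The type of repeat differed. Each gene was given the type of its longest repeat, so shorter repeats of another type were not counted. The GA/CT type, that of Skint7, Traf3ip3, Lonrf2, Hes7 and C1ql4, was the type in 40% of the 100 largest rises and 3.62% of all genes. The CA/GT type of Tafa1 and Trp73os was the type in 24% and 11.4%. Turned around, 36.4% of the 646 genes whose longest repeat was GA/CT were called higher in MUT vs WT, with a median log2 change of 0.66. Of the genes without any such repeat 13.0% were called higher, with a median of −0.39. Genes with a repeat had longer exons. The median exon length was 4.82 kb for the 100 largest rises, 4.13 kb for all, 6.06 kb for genes with a repeat and 3.54 kb for those without, and the part of length was not tested.

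**Figure D5:**
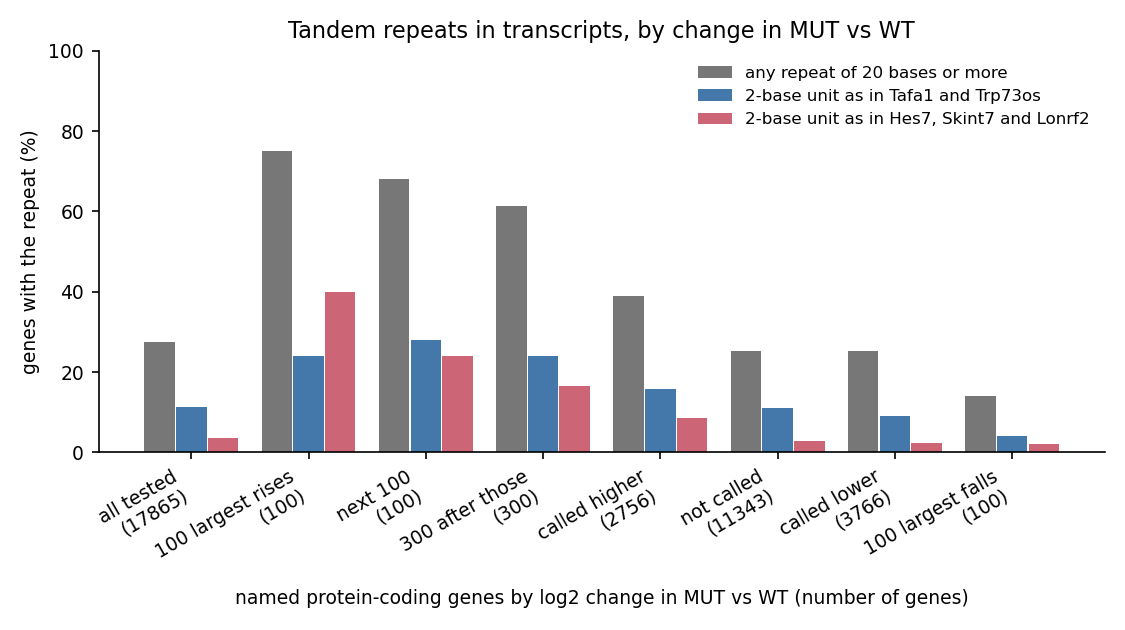
Share of named protein-coding genes (%) with a tandem repeat of at least 20 bases in a transcript, by log2 change in MUT vs WT; grey bars are any repeat, blue bars the CA/GT type, red bars the GA/CT type, with the number of genes in parentheses and the members left out. The grey share is 75% in the 100 largest rises, 27.4% over all genes tested and 14% in the 100 largest falls. The type is that of the longest repeat of each gene.

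Which reads lay on the repeats cannot be read from gene-level values. The share among the 100 largest rises was 79% with scaling to total reads, 78% after subtraction of the receptor background, 83% with MUT replicate 2 as the only MUT library and 71% without it. Repeats were also frequent among the listed genes of other tissues that rose most: Rbfox3 has one of 28 bases, Cbln3 and Pkp1 one of 26 bases each, and Pax5 one of 20 bases. Of the 18 neuron and astrocyte markers, 12 have one. In the other lists of this kind, repeats were present in 0 of 10 tested liver, 1 of 8 testis, 1 of 8 pancreas, 1 of 11 lens and retina, 4 of 14 B cell and 3 of 13 T cell markers. They were present in 0 of 7 Skint genes, 0 of 9 Hes and Hey genes and 4 of 27 p63-linked genes.

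Short motifs were searched upstream of RefSeq start sites of the genes, and none of those searched was present in all windows. RefSeq (GRCm38.p6) start sites were at hand for 6 of the 8, and the 250 bases before the start were searched on both strands. For Lonrf2, Skint7, C1ql4, Traf3ip3 and Hes7 this start lies inside the GENCODE span given above. Their windows thus lie partly within the annotated gene, and the N-box of Traf3ip3 lies in that part. The E-box CANNTG, which includes the sites bound by Twist1, occurred in 3 of 6 (Tafa1, Skint7 and Hes7) and in 66.2% of 32851 such windows. The N-box CACNAG, a site of Hes proteins, occurred in 3 of 6 (Lonrf2, Traf3ip3 and Hes7) and in 36.7% of windows. The E-box variants CATCTG and CATATG occurred in none of the 6, against 14.4% and 3.46% of windows. No match says only that these letters are not in these windows.

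In the authors' deposited table the log2 ratio of MUT over WT was 7.23 for Tafa1, 6.44 for Trp73os, 6.43 for Trp63, 6.19 for Skint7, 5.95 for Traf3ip3, 5.83 for Lonrf2, 5.66 for Hes7 and 5.41 for C1ql4. For REG over WT the authors' deposited table gave FDR values from 0.461 for C1ql4 to 0.935 for Traf3ip3.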

How the data were processed

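RNA from 9 coronal suture libraries was sequenced single-end on a NextSeq500 with 75 cycles. Per the submitters' processing notes, the tools were STAR 2.6.1d and Partek, and the genome build mm10. How reads were counted, and on which annotation, is not given in the sources used here. Values in the deposited matrix are signal values, whose 75th percentile is about 2.76 in every library. The deposited table gives the authors' log2 ratios, p-values and FDR. Matrix columns were tied to genes by 4 statistics that matched, to within 1e-06 of the value, for 43644 of 43644 genes. A value divided by the lowest one of its library, minus 1, was read as estimated reads. Depth in MUT replicate 2 was the lowest (2945636 estimated reads), which limits precision there.

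All 9 libraries were fitted together in limma 3.58.1 (R 4.3.3) on log2(value + 0.367), for the 29107 genes that reached 0.367 in 3 or more libraries, so changes of low genes are understated. P-values are two-sided and Benjamini-Hochberg adjusted over all genes tested. An exact permutation test of 3 against 3 cannot go below p = 0.1 and was not used. The pipeline was tested on simulated data. The genes, lists and comparisons were chosen with earlier results of these data known. Genes named are the 8, whole families of up to 10 genes, the most changed called gene of each list in each direction, the closest match of each of the 8, and Twist1; other names were picked after their values were seen. Alternatives were other scalings, filters, pseudocounts and libraries left out.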

Additional observations from a re-analysis of the deposited data

How the results depend on the processing

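The 8 genes kept their direction from WT to MUT and from MUT to REG under all 22 alternatives, which the choice of genes favours. In REG vs WT 7 values changed sign: with REG replicate 3 alone those of Tafa1 (−2.33), Trp73os (−2.44) and Skint7 (−1.60), without REG replicate 3 those of Lonrf2 (0.16) and Hes7 (0.42), and for Traf3ip3 without WT replicate 2 (−0.10) or WT replicate 3 (−0.08). With 1 library left out, Lonrf2 ran from −0.80 to 0.16, Hes7 from −0.81 to 0.42 and Traf3ip3 from −0.10 to 0.51. The cause was not tested.

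Genes called in MUT vs WT (10225) came to 1777 with MUT replicate 2 alone, 3857 after background subtraction, 4895 with the stricter filter and 5181 with quantile scaling, and to 3756 to 12716 with 1 library left out. Called higher and lower were 5964 and 4261, 11734 and 876 with total-read scaling, and 3449 and 5553 with trimmed-mean scaling. For REG vs MUT (10653) the counts were 1494, 3710, 3652 and 4200 in the same order, 6051 with only the 2 groups compared, and 3646 to 11674 with 1 library left out. For REG vs WT 0 genes were called in each fit but the one without REG replicate 3 (1616). Listed genes called in MUT vs WT (74) were 19 with MUT replicate 2 alone, 38 after background subtraction, 38 with the stricter filter, 44 with quantile scaling, and 26 to 94 with 1 library left out. Neighbours called (28) were 3, 9, 14 and 13 in the same order, and 6 to 33 with 1 library left out. The stricter filter tests fewer genes.

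A replicate block gave 8766 calls in MUT vs WT and 9373 in REG vs MUT. Deviations from the group means had correlations of −0.196 to 0.101 between same-numbered libraries. These show no pairing by number, but cannot exclude that samples were taken or prepared in pairs. The labels do speak of pairs of samples, without explaining them.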
